A study of Mus musculus with 26 samples.

Results

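Fatty acid uptake and activation are described here through 10 genes chosen by name: the membrane receptor gene Cd36, the fatty acid transport protein genes Slc27a1, Slc27a2 and Slc27a4, the fatty acid binding protein genes Fabp3, Fabp4 and Fabp5, and the long-chain acyl-CoA synthetase genes Acsl1, Acsl3 and Acsl5. The choice was made with earlier results of these data known. All 10 were among the 50686 genes listed and the 17286 tested. RNA-sequencing was carried out on BAT, labelled supraclavicular, from 26 male C57BL/6J mice aged 12 to 16 weeks, after 2 weeks at thermoneutrality (30 °C in the labels, 29 °C in the methods). There were 7 control littermates and 7 mice labelled fat-specific Afadin knockout (FAKO) at thermoneutrality, and 5 control littermates and 7 mice labelled FAKO after a further 6 h at 5 °C. FAKO mice carry floxed alleles of the Afadin gene (Afdn, also called Mllt4) and Adiponectin-Cre. The promoter drives Cre in all adipocytes, so that white fat is targeted together with BAT. In whole tissue, fewer cells of a type and less RNA per cell cannot be told apart.

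Brown adipocytes burn fatty acids to make heat, and in cold they take up fatty acids released from circulating triglycerides and from white fat. CD36 binds long-chain fatty acids at the cell surface. Fatty acid binding proteins carry them in the cytosol, and acyl-CoA synthetases join them to coenzyme A, the activation step that precedes both oxidation and storage as triglyceride. The transport proteins of the Slc27 family (FATPs) combine the promotion of uptake with acyl-CoA synthetase activity.

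Values are CPM, the counts of a gene as a fraction of the mouse's library after scaling with TMM factors. Fold changes are on the log2 scale. Adjusted p-values come from the quasi-likelihood test of edgeR, with Benjamini-Hochberg adjustment across the 17286 genes and a threshold of 0.05. Total counts ran from 12705969 to 25732258 per mouse, and the 10 genes had between 160 and 174273 counts in a mouse. Afdn was counted over the whole gene and not over the floxed exon. It was at 151 to 214 CPM in control mice and 154 to 231 CPM in mice labelled FAKO at thermoneutrality. These ranges overlapped, so its level did not separate the labels there, and the reason was not tested. At 5 °C Afdn was at 67.9 to 79.2 CPM in control mice and 53.3 to 65.3 CPM in mice labelled FAKO. Those ranges did not overlap, but the difference did not pass the threshold (log2 fold change -0.33, SE 0.09, adjusted p = 0.116). The groups are therefore named by their labels. At the protein level, the paper reports by immunoblot that the cold-induced rise of Afadin in BAT was smaller in FAKO than in control mice. A supplementary immunoblot of the paper also compares Afadin in BAT of FAKO and control mice at thermoneutrality. The summed level of 10 brown adipocyte markers was 3595 to 4959 CPM at thermoneutrality and 18623 to 28840 CPM at 5 °C. The sum is mostly Ucp1 in cold. In control mice 5 of the 10 markers rose, 2 fell (Adipoq by 0.77 and Prdm16 by 0.66 in log2) and 3 did not pass the threshold. At the other end, 3 hepatocyte markers together stayed at or below 0.551 CPM. The sum of 6 skeletal muscle markers differed widely within every group, from 1.33 to 6848 CPM, and 16 of the 26 mice were at or below 1000 CPM. Control mouse 7 at thermoneutrality stood apart. Its mitochondrial share of counts was the lowest of the 26 mice (14.3%, the highest being 40.5%), its muscle sum was 4997 CPM, and its median correlation with its own group was 0.958, against 0.962 to 0.985 for the others.

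Promoter windows from RefSeq (GRCm38.p6, 250 bases before to 50 bases after a start) were matched for 8 of the 10 genes, in 11 windows. Fabp4 and Fabp5 had none. The stretches before the RefSeq start are shown for Slc27a2 and Acsl1, which rose the most in cold, for Fabp3, which rose as well, and for Acsl3, which fell. Capitals mark AAAGGTCA, the motif bound by Nr4a receptors, on either strand in Slc27a2 (chr2:126552774-126553023, plus strand). They mark TGACG, a core of the cAMP response element, in Fabp3 (chr4:130308488-130308737, plus strand). In Acsl1 (chr8:46470787-46471036, plus strand) they mark the GC box GGGCGG, and in Acsl3 (chr1:78657575-78657824, plus strand) GGGCGG and CCAAT, again on either strand.
Slc27a2: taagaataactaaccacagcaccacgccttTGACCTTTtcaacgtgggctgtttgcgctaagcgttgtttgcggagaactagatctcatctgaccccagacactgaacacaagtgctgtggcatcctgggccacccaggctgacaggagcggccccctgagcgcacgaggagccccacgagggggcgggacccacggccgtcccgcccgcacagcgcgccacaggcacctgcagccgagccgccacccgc
Fabp3: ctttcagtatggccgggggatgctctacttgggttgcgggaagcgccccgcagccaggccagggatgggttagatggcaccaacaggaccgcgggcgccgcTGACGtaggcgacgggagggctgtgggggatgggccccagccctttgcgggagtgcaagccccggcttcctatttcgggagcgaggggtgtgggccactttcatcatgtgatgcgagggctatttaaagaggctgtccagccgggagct
Acsl1: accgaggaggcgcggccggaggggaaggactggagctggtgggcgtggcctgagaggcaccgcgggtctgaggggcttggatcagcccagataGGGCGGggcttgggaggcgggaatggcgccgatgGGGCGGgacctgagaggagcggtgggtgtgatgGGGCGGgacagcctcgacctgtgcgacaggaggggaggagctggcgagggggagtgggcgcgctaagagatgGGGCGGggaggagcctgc
Acsl3: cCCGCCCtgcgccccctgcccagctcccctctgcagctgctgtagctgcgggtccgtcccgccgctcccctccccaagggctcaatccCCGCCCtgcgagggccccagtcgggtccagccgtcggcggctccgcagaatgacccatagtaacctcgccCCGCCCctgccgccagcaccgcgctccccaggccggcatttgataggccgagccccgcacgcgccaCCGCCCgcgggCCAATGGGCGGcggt

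RefSeq and GENCODE do not give the same start for every gene. In GENCODE Slc27a2 begins at 126552407, so the whole stretch shown for it lies within the gene, as does the Cd36 window. Fabp3 begins at 130308595 in GENCODE, within its stretch. The AAAGGTCA of Slc27a2 lay on the opposite strand with its first base 220 bases before the RefSeq start. This motif was in 1 of the 11 windows and in 1.52% of all 32544 distinct windows. The shorter AGGTCA, which lies within it, was also in the Cd36 window, 228 bases before the start on the opposite strand, and in 16.2% of all windows. TGACG was in the Fabp3 window alone, 149 bases before the RefSeq start, and in 20.9% of all windows. The full cAMP response element TGACGTCA, which holds TGACG, was in none of the 11 windows and in 1.8% of all. GGGCGG was in 7 of the 11 windows, of 6 genes (35.9% of all windows), and CCAAT in 6 of the 11, of 5 genes (37.4%). TATAAA (13.6%) and a direct repeat of AGGTCA with 1 base between the copies (0.0399%) were in none. The Acsl1 window shown held 4 GGGCGG before its start, and the second Acsl1 window held none. A match is a description of letters only.

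Levels were compared between genes per length, as CPM per kb of the principal transcript. In control mice at thermoneutrality Fabp4 was the most abundant of the 10, at 4196 ± 187 CPM per kb (SD, n = 7). Cd36 followed at 593 ± 50.7, Acsl1 at 375 ± 76.8 and Fabp3 at 346 ± 107 CPM per kb. Then came Slc27a1 at 55.7 ± 14.99, Slc27a2 at 40.9 ± 11.2, Fabp5 at 29.4 ± 4.74, Acsl5 at 24.5 ± 5.69, Acsl3 at 6.26 ± 0.787 and Slc27a4 at 5.80 ± 0.573 CPM per kb. The ranges over mice of Acsl1 and Fabp3 overlapped, as did those of each neighbouring pair from Slc27a1 down to Acsl5 and those of Acsl3 and Slc27a4, so the order within these runs was not resolved. By CPM without a length, averaged over all mice, Fabp4 ranked 10th, Acsl1 15th and Cd36 19th of the 17286 genes, while Acsl3 ranked 5909th. At 5 °C the order in control mice was Fabp4 (7961 ± 264 CPM per kb, n = 5), Acsl1 (1522 ± 252), Cd36 (1156 ± 26.7), Fabp3 (919.7 ± 44.2), Slc27a2 (172 ± 14.8), Slc27a1 (37.5 ± 6.65), Acsl5 (26.2 ± 3.06), Fabp5 (24.9 ± 5.46), Slc27a4 (6.76 ± 0.759) and Acsl3 (3.46 ± 0.834). Acsl1 now lay above Cd36 and Slc27a2 above Slc27a1 in every mouse, and of the neighbours only Acsl5 and Fabp5 overlapped. The place of Acsl1 turns with the length used. Per kb of exon union, which is 10483 bases for Acsl1 and 3590 for Cd36, Acsl1 was at 456.6 to 689.9 in cold control mice and Cd36 at 1065 to 1135, while Slc27a2 stayed above Slc27a1.

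After 6 h at 5 °C, 5 of the 10 genes rose in control mice, a share to be read beside the 31.6% of all tested genes that rose. These were Slc27a2, Acsl1, Fabp3, Cd36 and Fabp4. Acsl3 and Slc27a1 fell, beside 33.4% of all tested genes, and Slc27a4, Fabp5 and Acsl5 did not pass the threshold. In mice labelled FAKO the same 5 genes rose together with Slc27a4 and Acsl5, making 7 of 10 beside 33.7% of all genes, and Acsl3 alone fell, beside 34.9%. The 2 temperatures did not overlap for 6 of the 10 genes in control mice, where this held for 46.4% of all genes, and for 5 of 10 in mice labelled FAKO, where it held for 40.4%. The median log2 fold change of the 10 was 0.57 in control mice and 0.81 in mice labelled FAKO, beside -0.01 and -0.03 for all tested genes. Each comparison has its own control group, and no mouse is shared between the cold comparisons. The sum of 4 nuclear-retained RNAs was 8951 to 10573 CPM at thermoneutrality and 14840 to 16273 CPM at 5 °C in control mice, and 10423 to 11779 CPM and 10340 to 13577 CPM in mice labelled FAKO. At 5 °C this sum did not overlap between control mice and mice labelled FAKO. Its part in the comparisons by temperature, by label and in their interaction was not tested.

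Cd36 (ENSMUSG00000002944.15, chromosome 5, 17781690 to 17888801, minus strand, GRCm38) encodes the scavenger receptor that binds fatty acids at the plasma membrane. In control mice at thermoneutrality it ran from 1743 to 2304 CPM, with a median of 2000.1 CPM. After 6 h at 5 °C the 5 control mice had 3907, 3924, 4076, 3922 and 3825 CPM. No cold mouse came near the warm ones, and the cold values lay within a narrow band. The log2 fold change was 0.96 (SE 0.06, adjusted p = 2.21e-13), a 1.95-fold rise. Mice labelled FAKO had a lowest, median and highest value of 1771, 1826 and 2054 CPM at thermoneutrality and 3598, 3888 and 4205 CPM at 5 °C. Here too the temperatures did not overlap, and the rise was 1.05 in log2 (SE 0.06, adjusted p = 8.36e-15). Cd36 and Fabp4 are also made by endothelial cells. The sum of 7 endothelial markers was 486 to 655 CPM in control mice at thermoneutrality and 780.2 to 910.1 CPM at 5 °C, without overlap, and 571 to 739 CPM and 676 to 937 CPM in mice labelled FAKO. In both genotypes 4 of the 7 rose (Pecam1, Cdh5, Kdr and Cldn5) and 3 fell (Tie1, Tek and Emcn). The part of these cells in the levels of Cd36 and Fabp4 was not tested.

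The 3 transport protein genes did not move together. Slc27a2 (ENSMUSG00000027359.16, chromosome 2, 126552407 to 126588243, plus strand) encodes FATP2, known from liver and kidney as a transporter and very-long-chain acyl-CoA synthetase. It ran from 63.2 to 151 CPM (median 123) in control mice at thermoneutrality, where control mouse 7 was the lowest. The cold control mice had 504, 463, 549, 543 and 456 CPM. Every cold mouse was above every warm mouse, and the log2 fold change of 2.08 (SE 0.15, adjusted p = 5.44e-12) was the largest rise of the 10, higher than that of 97.6% of tested genes. Without control mouse 7 it was 1.94. Among mice labelled FAKO it ran from 87.2 to 130.3 CPM (median 95.3) and, at 5 °C, from 365 to 578 CPM (median 501), rising by 2.30 (SE 0.15, adjusted p = 2.35e-13). The hepatocyte markers, which mark a tissue rich in FATP2, were at or near 0. The highest counts in a mouse were 10 for Alb, 4 for Apoa1 and 1 for Ttr. Which cells the counts of Slc27a2 came from was not tested. A long non-coding RNA on the opposite strand, Gm26697, overlaps its exons, and its group means were at or below 0.716 CPM.

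Slc27a1 (ENSMUSG00000031808.7, chromosome 8, 71568882 to 71587302, plus strand) encodes FATP1, the insulin-responsive transporter of fat and muscle. It moved the other way in control mice. At thermoneutrality it ran from 126 to 244 CPM (median 136), the highest value being that of control mouse 7. In cold, control mice had 97.5, 86.2, 118, 130.03 and 91.8 CPM. The groups overlapped through a single cold mouse, and the log2 fold change was -0.57 (SE 0.17, adjusted p = 0.00523). Without control mouse 7 it was -0.45. Skeletal muscle, which expresses Slc27a1, was present to an unequal extent. The median of its marker sum was 60.6 CPM in warm and 735 CPM in cold control mice. In the 5 warm and 3 cold control mice with at most 1000 CPM of muscle markers, Slc27a1 ran from 126 to 156 CPM and from 86.2 to 130.03 CPM. The log2 fold change among these mice was -0.30 (SE 0.17) and the call was lost (adjusted p = 0.140, over all alternatives 0.00144 to 0.140). This set has fewer mice, and the part of muscle in the level of Slc27a1 was not tested. The mice labelled FAKO ranged from 117 to 164 CPM (median 126) at thermoneutrality and from 84.0 to 174 CPM (median 142) at 5 °C, with full overlap (log2 fold change -0.10, SE 0.16, adjusted p = 0.598).

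Slc27a4 (ENSMUSG00000059316.2, chromosome 2, 29802634 to 29817522, plus strand) encodes FATP4, a transporter and synthetase known from gut and skin. It was the least abundant of the 3. Control mice had 20.8 to 26.6 CPM (median 23.3) at thermoneutrality, and 22.8, 29.1, 25.7, 29.5 and 29.96 CPM at 5 °C. The groups overlapped in part, and the log2 fold change of 0.22 (SE 0.10) did not pass the threshold (adjusted p = 0.0633). It did when control mouse 2 or 16 or FAKO mouse 28 was left out, with log2 fold changes of 0.25, 0.28 and 0.22. FAKO-labelled mice ranged from 19.1 to 25.3 CPM (median 22.5) at thermoneutrality and from 21.2 to 34.4 CPM (median 25.1) at 5 °C, a rise of 0.27 (SE 0.09, adjusted p = 0.0150). That call was lost without FAKO mouse 8, 12 or 28 (log2 fold change 0.22, 0.20 and 0.20), and with library size alone as the scaling the direction turned (-0.03).

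Among the binding proteins, Fabp4 and Fabp3 rose and Fabp5 did not pass the threshold. Fabp4 (ENSMUSG00000062515.3, chromosome 3, 10204088 to 10208576, minus strand) encodes the adipocyte fatty acid binding protein, aP2. It ran from 3545 to 4012 CPM (median 3787) in control mice at thermoneutrality. Control mice at 5 °C had 7160.0, 6889, 7478, 6935 and 7200.4 CPM. No overlap was seen, and the log2 fold change was 0.92 (SE 0.07, adjusted p = 1.44e-11), close in size to that of Cd36. The ranges in mice labelled FAKO were 3252 to 3971 CPM (median 3407) and 7047 to 9795 CPM (median 7392), a rise of 1.12 (SE 0.07, adjusted p = 6.18e-14). The highest value belonged to FAKO mouse 27, and the other 6 cold FAKO mice were at 7047 to 7729 CPM.

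Fabp3 (ENSMUSG00000028773.8, chromosome 4, 130308595 to 130315463, plus strand) encodes the heart and muscle type, which is also known as a cold-responsive gene of BAT. It ran from 144 to 392 CPM (median 299) in control mice at thermoneutrality, with control mouse 7 lowest. Control mice at 5 °C had 799, 786, 749, 709 and 741 CPM. The cold values lay close together, above a wide warm range, and the log2 fold change was 1.41 (SE 0.17, adjusted p = 6.21e-08). Without control mouse 7 it was 1.28. Mice labelled FAKO ranged from 209 to 366 CPM (median 260.3) and from 598 to 787 CPM (median 752) at 5 °C, a rise of 1.37 (SE 0.16, adjusted p = 2.95e-08). In the mice with at most 1000 CPM of muscle markers the temperatures also did not overlap, at 290.01 to 392 CPM and 709 to 786 CPM in control mice. The processed copy Fabp3-ps1 is 99.3% identical over 402 bases, and reads could be split between them. It had group means of 3.95 to 12.3 CPM and rose with Fabp3 in control mice (1.53, SE 0.20, adjusted p = 1.43e-07). Counting both together gave a log2 ratio of mean CPM of 1.41. Zcchc17 and Gm10570, on the opposite strand, share exon bases with Fabp3.

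Fabp5 (ENSMUSG00000027533.10, chromosome 3, 10012548 to 10016607, plus strand) encodes the epidermal type, which adipocytes and macrophages also make. Control mice had 24.2 to 38.7 CPM (median 28.3) at thermoneutrality and 21.3, 20.3, 27.1, 32.9 and 21.3 CPM at 5 °C. The groups overlapped, and the log2 fold change was -0.24 (SE 0.14, adjusted p = 0.128). Without control mouse 19, the highest of the cold ones, it was -0.36 and passed (adjusted p = 0.0214, over all alternatives 0.0214 to 0.904). Among mice with few muscle counts it was -0.02. Mice labelled FAKO ranged from 22.5 to 27.3 CPM (median 24.7) and from 19.96 to 36.7 CPM (median 28.2), where the log2 fold change was 0.16 (SE 0.12, adjusted p = 0.251). Restricted to FAKO mice with few muscle counts it was 0.35 and passed (adjusted p = 0.0224, over all alternatives 0.0224 to 0.964). The sum of 6 macrophage markers was 177 to 258 CPM and 177 to 228 CPM in control mice at thermoneutrality and 5 °C, and 172 to 218 CPM and 185 to 283 CPM in mice labelled FAKO. In control mice 1 of the 6 rose (Mrc1) and 3 fell (Adgre1, Csf1r and Lyz2). In mice labelled FAKO 3 rose (Mrc1, Cd68 and C1qa) and 2 fell (Adgre1 and Csf1r). The part of macrophages in the level of Fabp5 was not tested.

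In control mice the 3 acyl-CoA synthetase genes split 3 ways. Acsl1 (ENSMUSG00000018796.13, chromosome 8, 46471037 to 46536051, plus strand) encodes the main long-chain acyl-CoA synthetase of adipocytes, required in BAT for fatty acid oxidation in cold. It ran from 1075 to 1906 CPM (median 1348) in control mice at thermoneutrality. Control mice at 5 °C had 5759, 5302, 7232, 6576 and 4787 CPM. The lowest cold mouse was far above the highest warm one, and the log2 fold change was 2.02 (SE 0.15, adjusted p = 4.33e-12), higher than that of 97.5% of tested genes. For mice labelled FAKO the ranges were 1053 to 1829 CPM (median 1341) and 5327 to 7495 CPM (median 6508), with a rise of 2.18 (SE 0.14, adjusted p = 2.92e-13). The predicted transcript Gm45244, which lies on the opposite strand over Acsl1 exons, had group means of 40.3 to 55.1 CPM.

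Acsl3 (ENSMUSG00000032883.15, chromosome 1, 78657825 to 78707743, plus strand) encodes the synthetase of the endoplasmic reticulum and of nascent lipid droplets. It ran from 18.2 to 27.2 CPM (median 25.1) in control mice at thermoneutrality. The cold control mice had 11.2, 13.3, 16.6, 17.5 and 9.91 CPM. All were below the lowest warm mouse, and the log2 fold change was -0.85 (SE 0.16, adjusted p = 3.25e-05). Among mice labelled FAKO it ran from 18.3 to 27.4 CPM (median 23.4) and from 11.2 to 23.0 CPM (median 14.9), with overlap, and fell by 0.53 (SE 0.14, adjusted p = 0.00167). Utp14b lies on the same strand, shares exon bases with Acsl3 and also fell in control mice (-0.53, SE 0.20, adjusted p = 0.0242). Reads of the shared bases cannot be given to either gene, and the log2 ratio of the summed means was -0.70.

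Acsl5 (ENSMUSG00000024981.5, chromosome 19, 55251938 to 55297720, plus strand) encodes a synthetase of mitochondria and the endoplasmic reticulum. Control mice had 81.0 to 153 CPM (median 92.9) at thermoneutrality, control mouse 7 being the highest, and 123, 105, 103, 127 and 98.1 CPM at 5 °C. The cold values lay inside the warm range (log2 fold change 0.10, SE 0.17, adjusted p = 0.638, and 0.19 without control mouse 7). In mice labelled FAKO it ran from 75.2 to 123 CPM (median 83.9) at thermoneutrality and from 99.9 to 218 CPM (median 117) at 5 °C. The groups overlapped, and it rose by 0.57 (SE 0.16, adjusted p = 0.00280). With library size alone as the scaling the rise was 0.26 and did not pass (adjusted p = 0.244, over all alternatives 0.000664 to 0.244). Zdhhc6, on the opposite strand, shares exon bases and had a log2 fold change of 0.20 in these mice (SE 0.07, adjusted p = 0.00704).

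**Figure D1:**
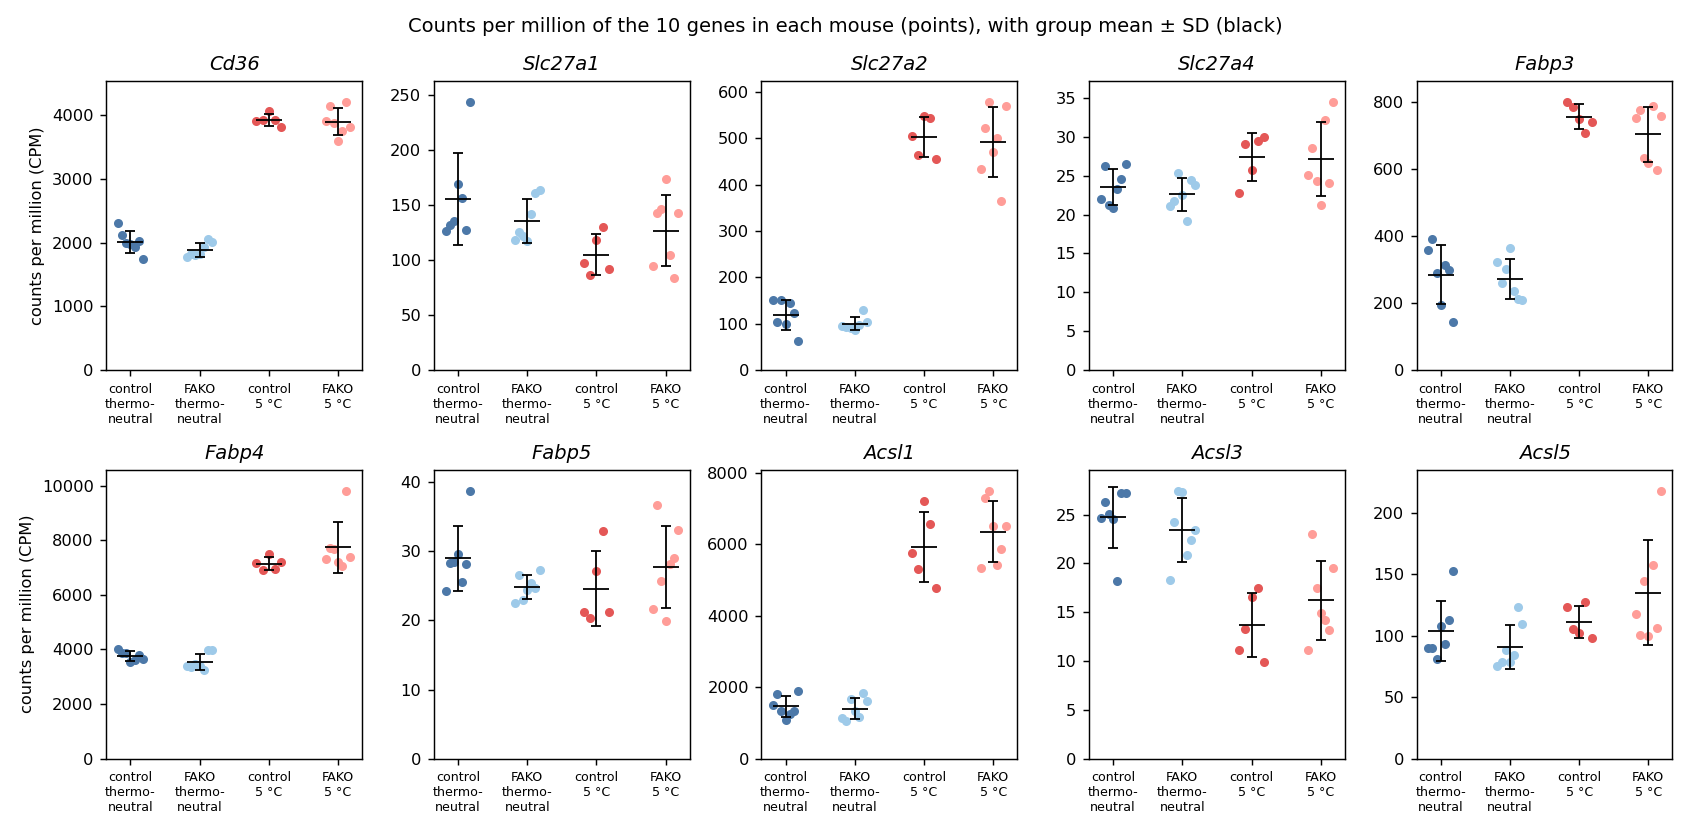
CPM of each of the 10 genes on linear axes from 0, with 1 point per mouse in the 4 groups (7, 7, 5 and 7 mice) and the group mean ± SD in black. Cd36, Slc27a2, Fabp3, Fabp4 and Acsl1 separate completely by temperature in both genotypes, whereas Slc27a1, Slc27a4, Fabp5 and Acsl5 overlap in both. Acsl3 separates in control mice and overlaps in mice labelled FAKO.

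The label was then compared at each temperature, the question being whether the loss of Afadin in fat goes with other levels of these genes. None of the 10 passed the threshold. At thermoneutrality edgeR called 0 of 10 and DESeq2 0 of 10, and 0 of 10 had an unadjusted p below 0.05, beside 0.081% of all tested genes past the FDR and 7.65% at the unadjusted p. At 5 °C the counts were again 0, 0 and 0 of 10, beside 0.139% and 13.4% of all tested genes. These are comparisons of label, and at thermoneutrality the targeted transcript itself did not pass the threshold (log2 fold change -0.01, SE 0.08, adjusted p = 0.992).

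The 95% intervals give the sizes of difference that lay within the error. At thermoneutrality all 10 log2 fold changes of FAKO over control were negative, from -0.26 for Slc27a2 (95% interval -0.55 to 0.03) to -0.06 for Fabp3 (-0.39 to 0.27), with a median of -0.09 beside -0.02 for all genes. For Cd36 the value was -0.09 (-0.21 to 0.02), for Fabp4 -0.08 (-0.22 to 0.05) and for Acsl1 -0.06 (-0.34 to 0.22). Signs at this size turned with the scaling: with library size alone, Cd36 was at 0.07, Fabp4 at 0.06 and Acsl1 at 0.06. At 5 °C 6 of the 10 values were positive, with Acsl5 at 0.28 (-0.08 to 0.64), Slc27a1 at 0.28 (-0.08 to 0.63) and Acsl3 at 0.24 (-0.08 to 0.56) the highest. Cd36 was at -0.01 (-0.14 to 0.11), Slc27a2 at -0.03 (-0.35 to 0.28), Fabp3 at -0.10 (-0.46 to 0.25), Fabp4 at 0.12 (-0.03 to 0.27) and Acsl1 at 0.10 (-0.21 to 0.40). The intervals of Cd36 and Fabp4 were the narrowest of the 10 at both temperatures.

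Whether the cold response itself differed by label was tested as an interaction. In edgeR 0 of the 10 genes passed, beside 1.16% of all tested genes, and DESeq2 also called 0. A single gene, Fabp5, had an unadjusted p below 0.05, beside 16.2% of all tested genes. Its difference of cold responses, FAKO minus control, was 0.40 (95% interval 0.02 to 0.78, adjusted p = 0.284). The differences for Slc27a1 (0.48, -0.00043 to 0.95, adjusted p = 0.309), Acsl5 (0.47, -0.02 to 0.96, adjusted p = 0.329) and Fabp4 (0.20, -0.0022 to 0.40, adjusted p = 0.314) were also not past the threshold. So the call of Slc27a1 in control mice alone, and those of Slc27a4 and Acsl5 in mice labelled FAKO alone, are not shown to differ by genotype. Among mice with few muscle counts the difference for Slc27a1 was 0.13. For the 5 genes that rose in both genotypes it was 0.08 for Cd36, 0.22 for Slc27a2, -0.04 for Fabp3, 0.20 for Fabp4 and 0.16 for Acsl1.

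**Figure D2:**
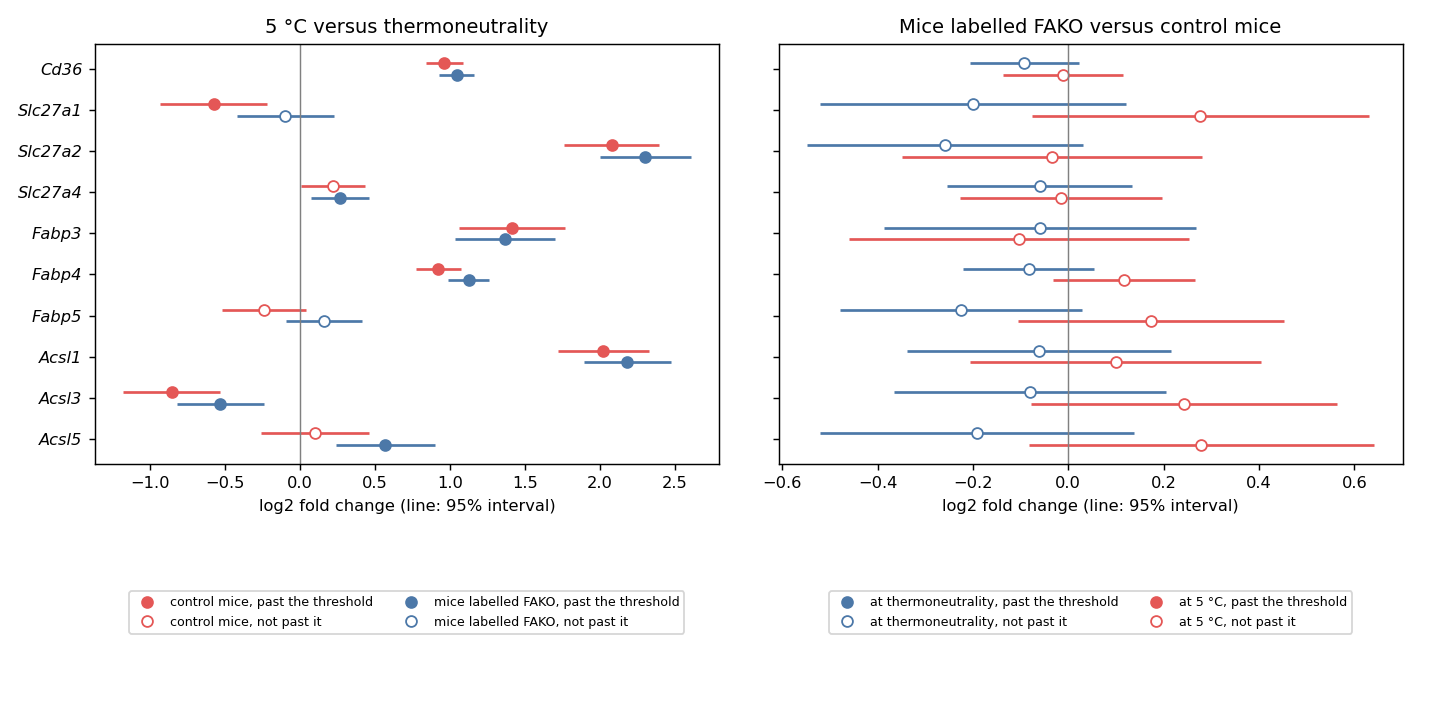
Log2 fold change (horizontal axis) of each gene with its 95% interval, for 5 °C against thermoneutrality in each genotype (left) and for FAKO against control at each temperature (right). Filled points passed the threshold and open points did not, and no point on the right is filled.

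Within the families the balance of members at 5 °C differed from that at thermoneutrality. As a share of the summed CPM per kb of the 3 Slc27 genes, Slc27a2 made up 18.8% to 50.5% (median 44.5%) in control mice at thermoneutrality and 77.6% to 81.0% (median 79.5%) at 5 °C. The share of Slc27a1 was 44.2% to 75.5% and 15.7% to 19.4%. The summed level of the 3 genes was 102 ± 9.22 CPM per kb (SD, n = 7) and 217 ± 21.0 CPM per kb (n = 5). In mice labelled FAKO Slc27a2 made up 35.4% to 41.3% and 70.5% to 79.1%, so neither genotype had overlapping shares between temperatures. The ranges of the genotypes overlapped at both temperatures. Which of Slc27a1 and Slc27a2 was ahead in control mice at thermoneutrality depends on the length used: with principal transcripts of 2795 and 2918 bases their mean shares were 54.0% and 40.2%, and with exon unions of 5835 and 3754 bases 41.97% and 49.6%.

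The sum of the 3 Acsl genes leaves out Acsl4, which rose in control mice from a mean of 28.5 to 65.7 CPM. Acsl1 made up 89.7% to 94.3% of the summed level of the 3 Acsl genes in control mice at thermoneutrality and 97.9% to 98.5% at 5 °C. Acsl5 had 4.32% to 8.24% and then 1.28% to 1.92%, and Acsl3 had 1.29% to 2.02% and then 0.187% to 0.257%. These 3 pairs of ranges did not overlap, and the same held in mice labelled FAKO, where Acsl1 had 91.7% to 93.9% and 96.7% to 98.4%. The level of Acsl5 itself did not pass the threshold in control mice and rose in mice labelled FAKO, whereas that of Acsl3 fell in both. The summed level was 406 ± 79.8 CPM per kb and 1552 ± 253 CPM per kb in control mice. Fabp4 had the largest share of its family at both temperatures, with 89.5% to 95.01% and 88.7% to 89.9% in control mice. Fabp5 had 0.497% to 0.915% and 0.238% to 0.387%, without overlap, while its own level did not pass the threshold. The sum of the 3 Fabp genes was 4571 ± 268 and 8905 ± 266 CPM per kb. With exon unions the size of these shares was different. Fabp4 then had 63.95% to 81.4% at thermoneutrality and 61.5% to 64.5% at 5 °C, and the mean share of Fabp3 was 28.4% and 36.6% in place of 7.48% and 10.3%. For the Acsl genes, the mean shares at thermoneutrality were 12.97% for Acsl5 and 3.47% for Acsl3 in place of 6.13% and 1.58%, and at 5 °C 3.92% and 0.527% in place of 1.71% and 0.222%. The ranges of Acsl1, Acsl3 and Acsl5 at the 2 temperatures did not overlap with these lengths either.

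**Figure D3:**
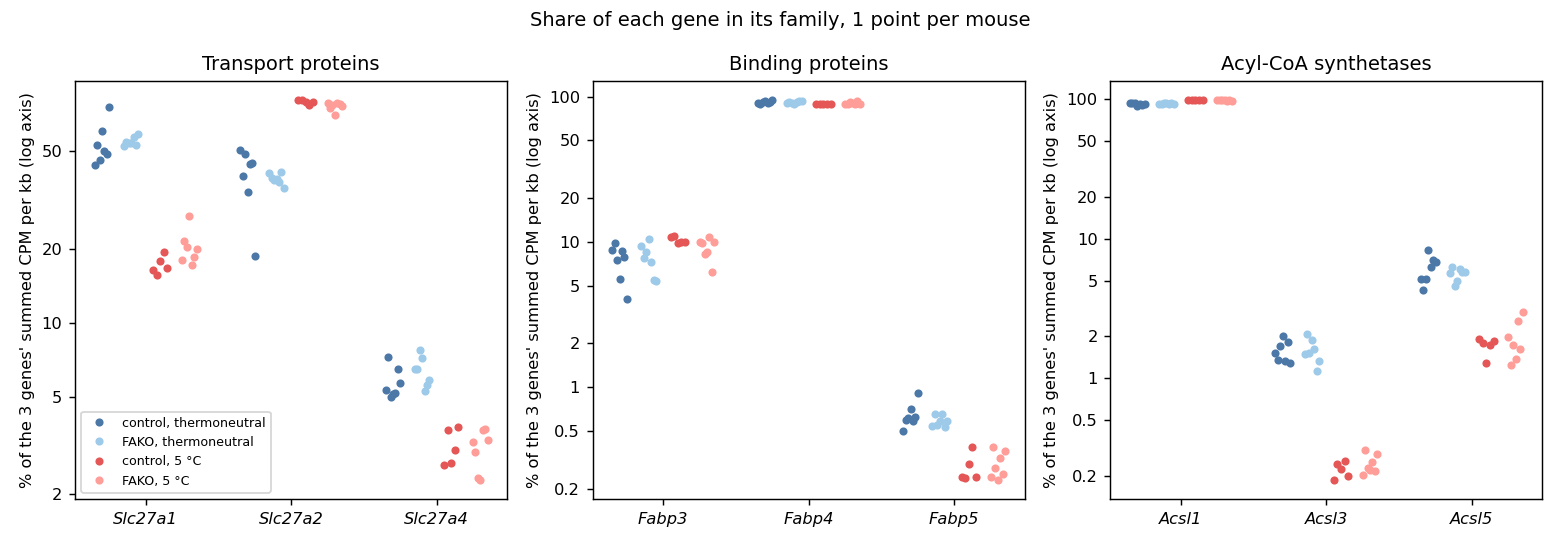
Share of each gene in the summed CPM per kb of its 3-gene family (vertical log axis, percent), 1 point per mouse, coloured by group. Slc27a2 stands at 77.6% to 81.0% in control mice at 5 °C, above all of the thermoneutral mice. The shares of the minor members Acsl3 and Acsl5 are lower at 5 °C, although the level of Acsl5 itself was not called lower in either genotype.

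Mice of a group also differed among themselves. Deviations from the group mean were smallest for Cd36 and Fabp4 and larger for Slc27a1, Fabp3 and Acsl5. Control mouse 7 deviated by -0.91 in log2 CPM of Fabp3 and by -0.86 in Slc27a2, and by 0.68 in Slc27a1 and 0.59 in Acsl5. FAKO mouse 28 at 5 °C deviated by 0.74 in Acsl5, and FAKO mouse 27 by 0.35 in Fabp4 and -0.55 in Slc27a1. Of the 45 pairs of genes, 2 were correlated over the 26 mice after group means were subtracted, by both coefficients. Cd36 and Fabp4 had Pearson's r = 0.64 (permutation p = 0.0001, adjusted p = 0.00450) and Spearman's rho = 0.65 (permutation p = 0.00126, adjusted p = 0.0461). Without the 2 mice farthest from the median of Cd36, r was 0.72. Acsl1 and Acsl3 had r = 0.57 (permutation p = 0.00173, adjusted p = 0.0259) and rho = 0.59 (permutation p = 0.00205, adjusted p = 0.0461), and r = 0.63 without the 2 farthest mice. Fabp5 with Acsl3 (r = 0.65) and Slc27a1 with Fabp3 (r = -0.62) passed by Pearson's r (permutation, adjusted p = 0.0354 and 0.0171) but not by Spearman's rho (0.0654 and 0.0504). The latter fell to -0.48 without control mouse 7.

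**Figure D4:**
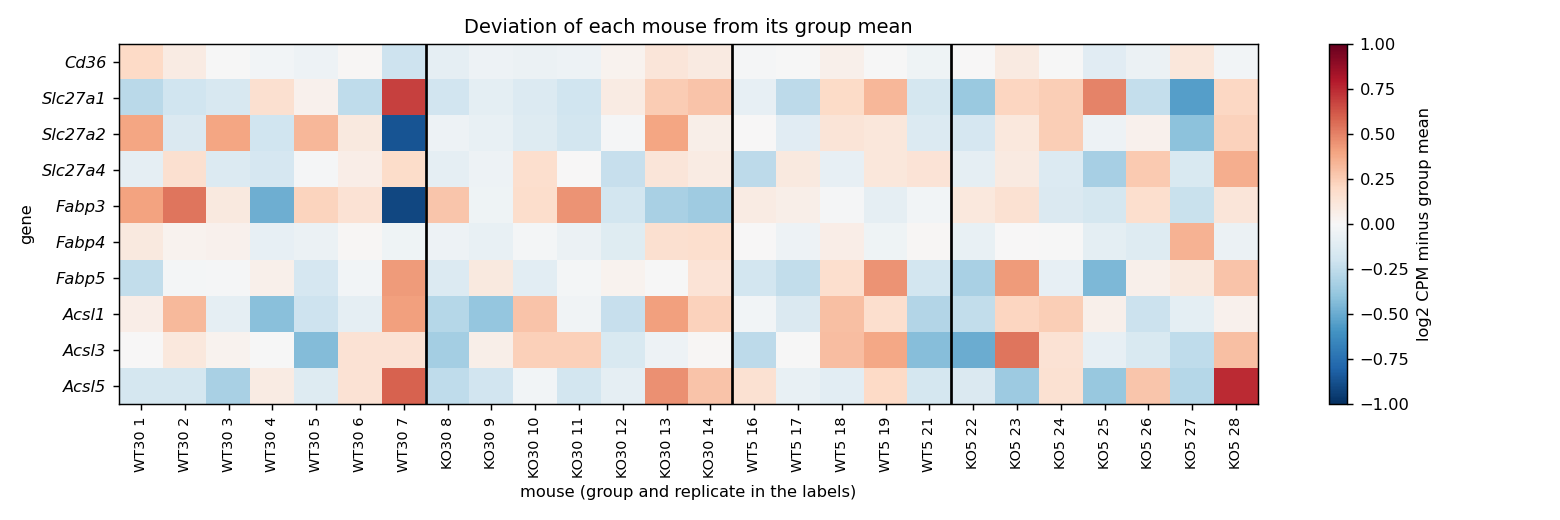
Deviation of log2 CPM from the group mean for each gene (rows) and mouse (columns, named by group and replicate in the labels), from -1 (blue) to 1 (red). WT and KO stand for control and FAKO, and 30 and 5 for thermoneutrality and 5 °C. Control mouse 7 (WT30 7) shows the strongest blue cells, in Fabp3 (-0.91) and Slc27a2 (-0.86).

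Over all tested genes with a mean of at least 1 CPM, the gene most alike to each member in these centred values was found over the 26 mice. It was Lpcat3, a lysophospholipid acyltransferase gene, for Acsl1 (r = 0.92, rho = 0.91) and Mpc2, which encodes a subunit of the mitochondrial pyruvate carrier, for Acsl5 (r = 0.83, rho = 0.78). For Slc27a1 it was Col1a2, a collagen gene of fibroblasts (r = 0.89, rho = 0.82), and for Cd36 it was Cmpk1, a nucleotide kinase gene (r = 0.80, rho = 0.75). Fabp4 was most alike to Rsl1d1 (r = 0.90), Slc27a4 to Cdk2ap2 (r = 0.88), Fabp3 to Cerkl (r = 0.86), Fabp5 to Mmd (r = 0.86), Slc27a2 to Gm24336 (r = 0.83) and Acsl3 to Mknk2 (r = 0.75). Without the 2 mice farthest from the median of the member these r ran from 0.64 for Acsl3 to 0.90 for Acsl1. They are the highest of many and carry no test.

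The other genes of the pathway were taken from 8 lists with 73 genes, 56 of them tested. In cold 29 rose and 16 fell in control mice, beside 31.6% and 33.4% of all tested genes. In mice labelled FAKO 31 rose and 14 fell, beside 33.7% and 34.9%. For the label at thermoneutrality, the label at 5 °C and the interaction, edgeR called 0 of the 56 in each, and 2, 12 and 6 had an unadjusted p below 0.05, beside 7.65%, 13.4% and 16.2% of all tested genes. DESeq2 called 0, 0 and 2, the latter being Dbi, the acyl-CoA binding protein gene, and Acsf2, a mitochondrial medium-chain acyl-CoA synthetase gene.

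Around the membrane step, 12 partners of uptake were tested, of which 7 rose and 3 fell in control mice (31.6% and 33.4% of all tested genes). Their median log2 fold change was 0.43, beside -0.01 for all genes. Lpl, which encodes the lipoprotein lipase that frees fatty acids from circulating triglycerides, had the largest rise (2.05, SE 0.12, adjusted p = 3.44e-14), from a mean of 1939 CPM to 8046 CPM. Scarb1, the gene of the HDL receptor SR-BI, fell the most (-1.39, SE 0.10, adjusted p = 5.27e-12). Of the other 3 Slc27 genes only Slc27a3 had enough counts to be tested. It was low, with a mean of 1.30 CPM and 3 to 47 counts in a mouse. Its log2 fold change was -0.52 in control mice (SE 0.33, adjusted p = 0.173) and it fell by 0.70 in mice labelled FAKO (SE 0.31, adjusted p = 0.0484). The other 7 fatty acid binding protein genes reached at most 10 counts in any mouse and were not tested.

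Among the 9 other acyl-CoA synthetase genes tested, 3 rose and 5 fell in control mice, beside 31.6% and 33.4% of all tested genes, with a median of -0.38 beside -0.01. Acsl4, which prefers polyunsaturated fatty acids, rose by 1.21 (SE 0.15, adjusted p = 1.37e-07), from 28.5 to 65.7 CPM. Acss2, which activates acetate in the cytosol, fell by 1.63 (SE 0.20, adjusted p = 4.76e-08), from 229 to 74.1 CPM. In mice labelled FAKO 4 rose and 3 fell (33.7% and 34.9% of all tested genes), with Acsm5, a medium-chain synthetase gene, showing the largest fall there (-1.04, SE 0.18, adjusted p = 1.54e-05). Of 5 acyl-CoA binding protein genes 3 rose and 2 fell in control mice, against the same shares of all genes, with Acbd6 at 0.51 (SE 0.09) and Acbd4 at -1.27 (SE 0.13) the largest in each direction.

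Further lists covered the fates of acyl-CoA. Of 7 genes of mitochondrial entry 3 rose and 2 fell in control mice, near the 31.6% and 33.4% of all tested genes. Slc25a20, the carnitine-acylcarnitine carrier, rose by 1.26 (SE 0.10, adjusted p = 4.64e-11), and Acacb, which makes the malonyl-CoA that inhibits entry, fell by 0.30 (SE 0.12, adjusted p = 0.0272). Of the 7, 4 passed in mice labelled FAKO, all of them higher in cold, beside 33.7% of all tested genes that rose and 34.9% that fell. Mlycd, which removes malonyl-CoA, had the largest rise there (1.58, SE 0.13, adjusted p = 2.20e-11). Of 14 genes that use acyl-CoA to build glycerolipids 10 rose and 2 fell in control mice, beside 31.6% and 33.4% of all tested genes, with a median of 0.67 beside -0.01. In mice labelled FAKO 11 rose and 3 fell, beside 33.7% and 34.9%, with a median of 0.86 beside -0.03. The 2 enzymes of the last step of triglyceride synthesis moved in opposite directions. Dgat1 rose by 1.89 (SE 0.14, adjusted p = 9.11e-12), from 137 to 507 CPM, and Dgat2 fell by 3.07 (SE 0.16, adjusted p = 7.33e-15), from 2199 to 263 CPM. Of 8 receptors that sense fatty acids 3 rose and 2 fell in control mice, near the 31.6% and 33.4% of all tested genes, with Ffar4 the largest rise (0.83, SE 0.29, adjusted p = 0.0145) and Ppara the largest fall (-1.17, SE 0.12, adjusted p = 2.78e-09).

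**Figure D5:**
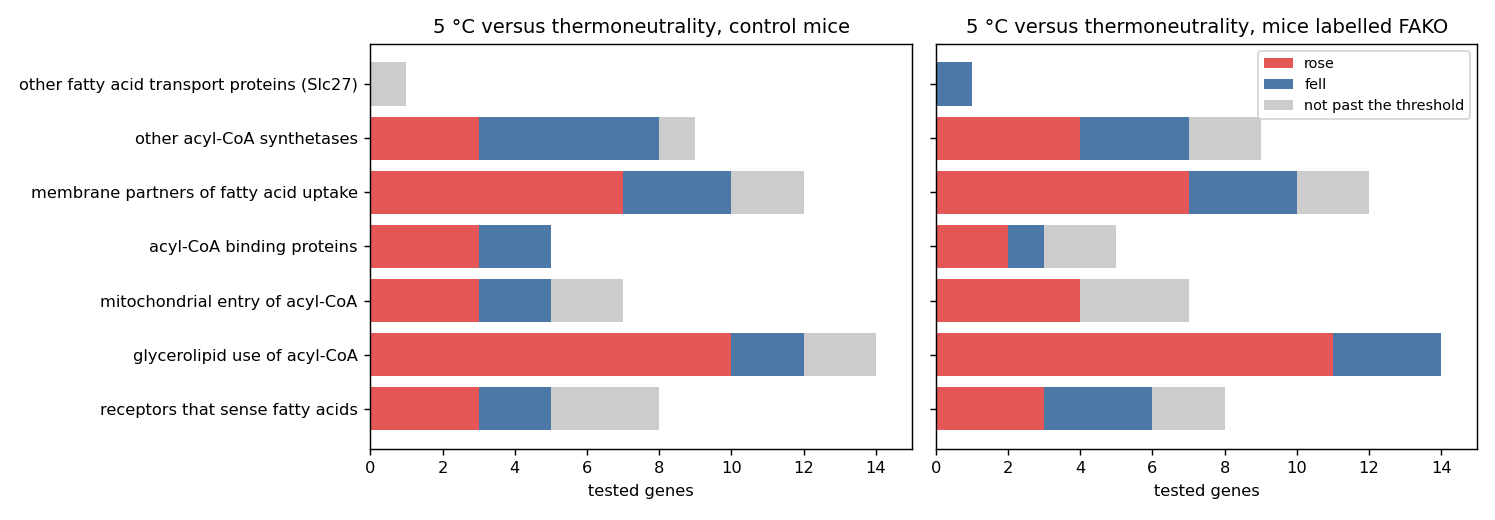
Number of tested genes (horizontal axis) in 7 of the 8 pathway lists that rose, fell or did not pass the threshold in cold, in control mice (left) and mice labelled FAKO (right). The list of 14 glycerolipid genes has the most that rose, 10 and 11, and the list of other fatty acid binding proteins had no tested gene and is not drawn.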

How the data were processed

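RNA-sequencing counts of brown adipose tissue (BAT) from 26 mice were used, and groups were taken from the sample labels. Per the labels and the study's methods, the authors used STAR v2.5.2b for alignment to mm10 and featureCounts v1.5.2 for counting over GENCODE genes. The deposited values are raw counts per gene, without normalization. The strand setting of the counting is not given in the sources used here. The reads were not realigned.

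Symbols, coordinates and transcripts came from GENCODE M21 (GRCm38), which gave 50376 of the 50686 listed genes a symbol. Genes were kept with filterByExpr by group (17286). Testing used the legacy quasi-likelihood F-test of edgeR 4.0.16 (R 4.3.3), 1 model term per group, TMM factors and Benjamini-Hochberg adjustment over all tested genes at an FDR of 0.05. Standard errors were derived from the F statistic. Log2 CPM had a prior count of 2. Per-length levels are CPM per 1000 bases of the principal transcript, chosen after exon unions were seen to include unspliced models. Correlations used 100000 permutations. The steps were tested on simulated data. Depth was 12705969 to 25732258 counts per mouse.

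The 10 genes and the other lists were chosen with earlier results of these data known. Other genes named are, per pathway list, the largest rise and the largest fall in cold in control mice among genes past the FDR whose mean reached 1 CPM, the targeted gene Afdn, and the tested gene most alike to each member. Neighbouring and near-identical genes, single marker genes, and Acsm5, Slc27a3, Mlycd, Dbi and Acsf2, were named after their values were seen. Alternatives were DESeq2 1.42.0, 2 scalings, 2 filters, 2 variance settings, a fit to only the groups compared, each mouse left out and, added after seeing the data, mice with few muscle counts only, mitochondrial genes left out and exon union lengths.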

Additional observations from a re-analysis of the deposited data

Results flagged for a closer look

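In 40 gene and group combinations, 5 held a mouse whose gap to its nearest neighbour was large for the range of its group, and chance flags about 1 in 20 groups. Control mouse 7 at thermoneutrality was high in Slc27a1 (243.5 CPM, the others 126 to 169) and in Fabp5 (38.72 CPM, the others 24.2 to 29.7). It is also the mouse with the lowest mitochondrial share and a muscle marker sum of 4997 CPM. FAKO mouse 13 at thermoneutrality was high in Slc27a2 (130.3 CPM, the others 87.2 to 103). FAKO mouse 27 at 5 °C was high in Fabp4 (9795 CPM, the others 7047 to 7729). Control mouse 5 at thermoneutrality was low in Acsl3 (18.16 CPM, the others 24.5 to 27.2). What these mice have in common beyond these values was not tested.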

How the results depend on the processing

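Of the 10 genes, 6 to 8 passed in cold in control mice and 7 to 9 in mice labelled FAKO over all settings, and 0 for the label and the interaction. With library size alone as the scaling, the median log2 fold change of all genes moved from -0.01 to -0.14 in control mice and from -0.03 to -0.34 in mice labelled FAKO in cold, from -0.02 to 0.13 for the label at thermoneutrality, and from 0.04 to -0.15 for the interaction. Signs then turned for Acsl5 in cold in control mice (-0.052), for Slc27a4 (-0.032) and Fabp5 (-0.14) in cold in mice labelled FAKO, for the label at thermoneutrality in Cd36 (0.066), Slc27a4 (0.071), Fabp3 (0.10), Fabp4 (0.065), Acsl1 (0.056) and Acsl3 (0.051), and for the interaction in Cd36 (-0.12), Slc27a2 (-0.0063), Slc27a4 (-0.12) and Acsl1 (-0.0103). Upper-quartile factors turned Acsl5 in cold in control mice (-0.0081) and the interaction of Slc27a4 (-0.0018). DESeq2 turned the label at 5 °C for Cd36 (0.00301) and Slc27a4 (0.0009695), and the fit without a filter did so for Cd36 (0.0009165). Among mice with at most 1000 CPM of muscle markers the turned values were Slc27a4 (0.021), Acsl1 (0.041) and Acsl3 (0.079) for the label at thermoneutrality, Cd36 (0.017), Slc27a4 (0.10) and Acsl1 (-0.0054) for the label at 5 °C, and Fabp3 (0.18) and Acsl1 (-0.047) for the interaction. Leaving out 1 mouse at a time gave ranges of -0.15 to 0.034 for Fabp3 and -0.12 to 0.031 for Acsl1 (label at thermoneutrality), -0.029 to 0.0068 for Cd36, -0.077 to 0.026 for Slc27a2 and -0.081 to 0.037 for Slc27a4 (label at 5 °C), and -0.021 to 0.10 for Slc27a4 and -0.14 to 0.060 for Fabp3 (interaction). None of these turned values had passed the threshold except that of Slc27a4 in cold in mice labelled FAKO, and the cause was not tested. Fabp5 in cold in control mice passed with upper-quartile factors (-0.34). Slc27a1 in cold in mice labelled FAKO passed with library size alone (-0.44). Slc27a4 in those mice no longer passed with upper-quartile factors (0.11), with at least 10 counts in every mouse (0.20) or with only the groups compared (0.23). No paired analysis was made, because the labels name neither pairs nor the litters of the mice. Beyond the depth, which gave at least 160 counts of each of the 10 genes in every mouse, the number of mice limits the precision.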
